A study of Homo sapiens with 21 samples.

Results

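The receptor tyrosine kinases of the ERBB, FGFR, PDGFR, MET and KIT families were followed through NLF cells, a human neuroblastoma line, with and without the MEK inhibitor trametinib. The members were the 10 genes EGFR, ERBB2, ERBB3, FGFR1, FGFR2, FGFR4, MET, PDGFRA, PDGFRB and KIT, found by symbol among the 57820 genes of the calibrated expression table, where each had 1 row. They were chosen by name and not by their values. Of these, 8 reached 1 FPKM (fragments mapped per unit of transcript length and of library size) in at least 3 libraries and were tested, while MET and KIT stayed below 1 FPKM in all 21 libraries.

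These receptors span the cell membrane. When a growth factor binds outside the cell, the receptors pair, phosphorylate each other and recruit adaptor proteins that switch on RAS, which passes the signal through RAF and MEK to ERK. Active ERK also induces inhibitors such as the Sprouty proteins that damp the receptors, and loss of this feedback under MEK inhibition, with higher receptor transcription in some tumours, is a known route of adaptation to such drugs. PDGF receptors are best known from mesenchymal cells, EGFR and ERBB2 from epithelia, and ERBB3, KIT and several FGF receptors from the neural crest, from which neuroblastoma arises.

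The 21 libraries formed 7 groups of 3. Untransduced NLF cells were the parental group. The control line sgCON carried a lentiviral CRISPR-Cas9 construct with a scrambled guide, and YAPKO1 and YAPKO2 were NLF lines in which YAP1, a transcriptional coactivator of the Hippo pathway, had been knocked out. Each of the latter 3 lines received either 20 nM trametinib, an allosteric MEK1 and MEK2 inhibitor, or DMSO as vehicle. Exposure lasted 72 h and began 24 h after plating. The parental libraries are labelled as DMSO samples, and all groups grew in medium with serum, which itself supplies growth factors. The labels do not say whether a line was 1 clone or a pool, nor whether the 3 replicates were separate cultures, so p-values measure the spread between these libraries, which may be technical.

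Values are FPKM after a further scaling by the median ratio between libraries. A level per length can be compared between genes, but FPKM carry no read counts, so the depth behind each value is unknown. Differences are on the log2(FPKM + 0.5) scale with the SE of the fit, and a gene was called where limma's Benjamini-Hochberg adjusted p over all 16092 tested genes was below 0.05. Between 13783 and 14233 genes reached 1 FPKM per library. The median deviation of GC-rich from GC-poor genes ranged over the libraries from -0.60 to 1.34 on the log2 scale, highest in YAPKO2 trametinib replicate 2, followed by YAPKO2 trametinib replicate 1 (0.70), YAPKO1 DMSO replicate 3 (0.68) and YAPKO2 DMSO replicate 2 (0.62). The 3 libraries left out together as of high GC trend, in an alternative fit, were the highest of their own groups: YAPKO1 DMSO replicate 3, YAPKO2 DMSO replicate 2 and YAPKO2 trametinib replicate 2. The trend also followed the groups, at -0.60 to -0.55 in parental cells, -0.48 to -0.38 in sgCON with DMSO and -0.28 to -0.15 in sgCON with trametinib. It was positive in every YAPKO2 library but trametinib replicate 3 (-0.25). Comparisons of lines, and of drug in sgCON, thus carry a difference in GC trend that leaving out those 3 libraries does not remove. YAP1 RNA itself was 24.2 to 27.8 FPKM in sgCON, 9.06 to 13.2 in YAPKO1 and 2.69 to 3.17 in YAPKO2, all in DMSO. Of 10 adrenergic neuroblastoma markers 9 reached 1 FPKM in some library, TH being the exception. Summed epithelial markers stayed at or below 19.8 FPKM with CDH1 and KRT14 listed at 0, and summed blood and endothelial markers at or below 13.8 FPKM with CD3E listed at 0.

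The 3 lines differ by design in their guides, whose matches were sought in the transcripts of GENCODE v29 on GRCh38. The YAPKO1 guide matched the coding part of exon 1 of YAP1 at chr11:102111058-102111077 on the plus strand, and the YAPKO2 guide matched the same exon at chr11:102110997-102111016 on the minus strand. Both matches lay in 7 of 11 annotated YAP1 transcripts and were followed by a PAM ending in GG. The scrambled guide matched 0 transcripts.
YAPKO1 guide: cgccgtcatgaaccccaaga
YAPKO2 guide: gtgcacgatctgatgcccgg
sgCON guide: gcactcacatcgctacatca

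Promoters of the PDGF receptors, which separated the lines, and of FGFR2, whose drug response differed between lines, are given as the 250 bases before the first start that RefSeq lists on GRCh38.p14. RefSeq lists 5 starts for FGFR2, 2 for PDGFRA and 1 for PDGFRB. RefSeq promoter entries matched 8 of the 10 members. PDGFRA lies on the plus strand (chr4:54229043-54229292), and PDGFRB (chr5:150155846-150156095) and FGFR2 (chr10:121598445-121598694) on the minus strand. Motifs were searched on both strands, and no motif's letters contain another's. TGANTCA, where N is any base, was a loose pattern for the AP-1 factors FOS and JUN, whose usual site has C or G at N. This pattern occurred in 6.57% of 35116 RefSeq promoter windows of this length. GGAATG, bound by the TEAD partners of YAP1, occurred in 11.9%, and CCGGAAGT, bound by ETS factors, in 3.42%. The E-box CACGTG, bound by MYC proteins, occurred in 6.34%. The PDGFRA window held 1 match to the loose AP-1 pattern, shown in capitals, whose first base lies at -32 from the start. Its middle base is A, so it is not the usual AP-1 site. The PDGFRB window and the FGFR2 window shown held no match to the 4 motifs. Of the other FGFR2 windows, chr10:121596646-121596895 held a TEAD match at -218 and chr10:121531315-121531564 a TEAD match at -84, and the other PDGFRA window held no match. Windows of other receptors, not shown, also held matches. ERBB2 had ETS matches at -27 and -14 and a match to the loose AP-1 pattern at -222, with T as the middle base. The EGFR window chr7:55109589-55109838 had a TEAD match at -114 and AP-1 matches at -232 and -136. The FGFR4 window chr5:177089300-177089549 had an E-box match at -37. The other EGFR and FGFR4 windows and those of KIT and MET held no match.
PDGFRA: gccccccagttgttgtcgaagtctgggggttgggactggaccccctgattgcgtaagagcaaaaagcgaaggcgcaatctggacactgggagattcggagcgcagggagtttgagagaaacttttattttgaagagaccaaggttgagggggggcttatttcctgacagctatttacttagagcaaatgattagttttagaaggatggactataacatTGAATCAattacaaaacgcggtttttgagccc
PDGFRB: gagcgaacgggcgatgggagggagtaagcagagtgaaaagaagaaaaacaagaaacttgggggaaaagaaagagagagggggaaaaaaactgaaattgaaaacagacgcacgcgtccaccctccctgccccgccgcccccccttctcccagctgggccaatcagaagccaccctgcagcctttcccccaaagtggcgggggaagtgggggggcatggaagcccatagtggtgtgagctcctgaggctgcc
FGFR2: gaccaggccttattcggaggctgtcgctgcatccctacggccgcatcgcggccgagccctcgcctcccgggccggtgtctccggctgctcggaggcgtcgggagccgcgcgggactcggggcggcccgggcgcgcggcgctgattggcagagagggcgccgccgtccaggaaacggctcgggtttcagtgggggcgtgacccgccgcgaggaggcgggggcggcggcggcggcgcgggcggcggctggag
A match here is a description of letters, and none of these libraries measured binding.

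Ranked by their mean level, FGFR1 stood highest of the 10 receptors, followed by PDGFRB, EGFR, FGFR4, FGFR2, ERBB2, PDGFRA, ERBB3, KIT and MET. FGFR1 ranged from 20.1 to 52.6 FPKM with a median of 31.4, PDGFRB from 8.05 to 25.2 with a median of 14.9, and EGFR from 10.1 to 18.0 with a median of 13.5. FGFR1 was above EGFR in every library, while the PDGFRB range overlapped with both. FGFR4 had a median of 7.02 FPKM, FGFR2 of 3.32 and ERBB2 of 2.98, and the ranges of the latter pair overlapped. PDGFRA varied most between conditions: its highest group mean, in YAPKO1 with trametinib, was 13.3 times its lowest, in sgCON with DMSO, against 1.57 times for EGFR and 1.93 times for FGFR1.

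The low end of the order lay near 0. ERBB3, the kinase-impaired partner of ERBB2, had a median of 0.505 FPKM and reached 1 FPKM in 3 of 21 libraries. KIT, the receptor for stem cell factor, had its highest value at 0.476 FPKM in YAPKO1 with DMSO. MET, the receptor for hepatocyte growth factor, was listed at 0 in 18 of 21 libraries and reached at most 0.129 FPKM. No response of MET or KIT to the drug was therefore tested.

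**Figure D1:**
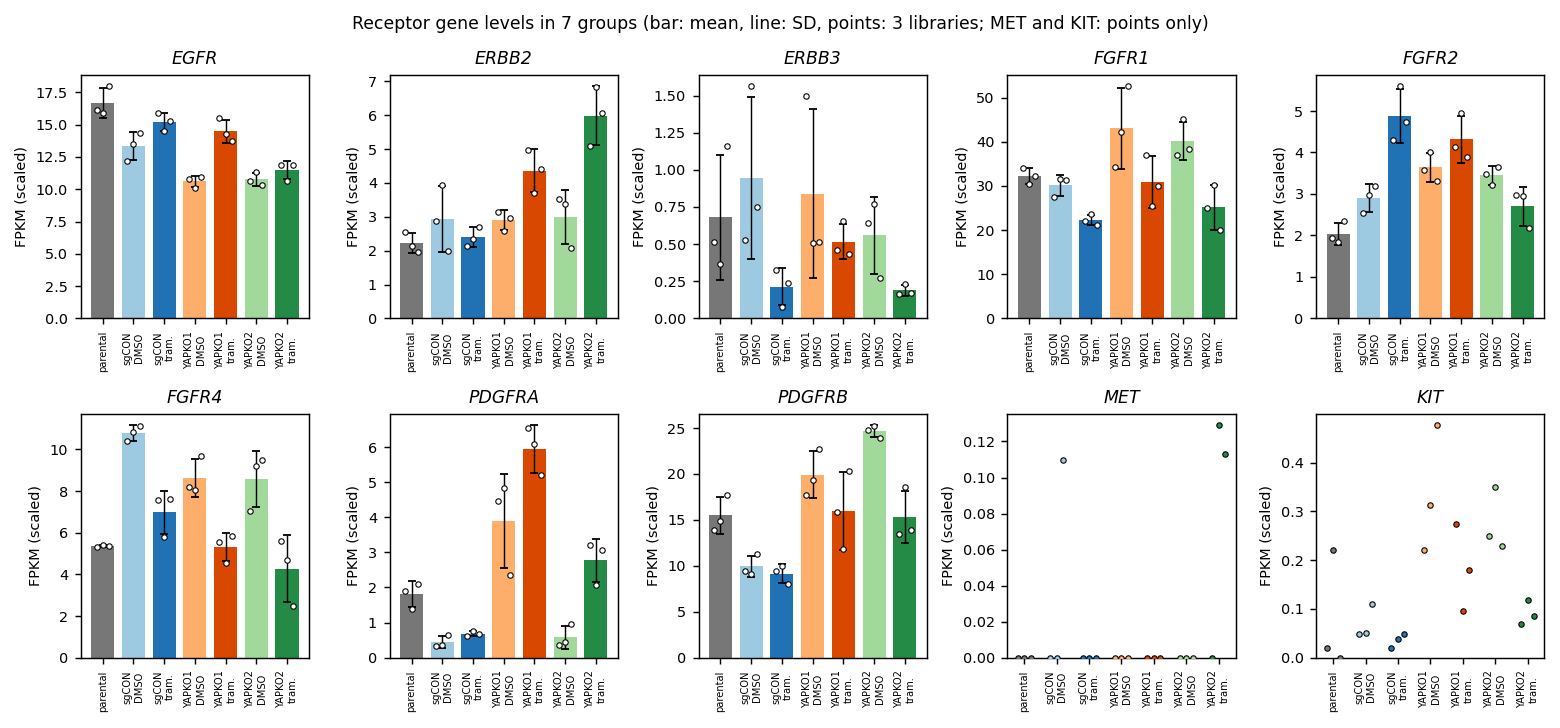
Levels of the 10 receptors in scaled FPKM (vertical axes, from 0, 1 scale per gene) in the 7 groups (horizontal axis); bars are means of 3 libraries, error bars the SD and points the single libraries, with points alone for MET and KIT. FGFR1 reached 52.6 FPKM, MET 0.129 FPKM, and PDGFRA separated the groups most.

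The question put to the trametinib arms was whether receptor transcripts rise under MEK inhibition. They did not rise as a group. In sgCON 1 of the 8 tested receptors was called, FGFR2, which rose (5.22% of all tested genes were called in that comparison). In YAPKO1 1 of 8 was called, EGFR, which rose (7.85% of all tested genes). In YAPKO2 5 of 8 were called (20.1% of all tested genes): ERBB2 and PDGFRA rose, and FGFR1, FGFR4 and PDGFRB fell. No receptor was called in more than 1 of the 3 lines, but this depended on the processing. After removal of each library's trend with transcript GC content, FGFR1 and FGFR4 were called as lower in all 3 lines. In that fit PDGFRA was also called as higher and PDGFRB as lower in both knockout lines. Over the 8 receptors sgCON had a median log2 change of -0.16, YAPKO1 of -0.05 and YAPKO2 of -0.45, beside medians over all genes of 0.00, -0.01 and -0.01. These receptor medians include ERBB3, which passed the filter only through libraries without the drug, so they are not independent of the filter.

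**Figure D2:**
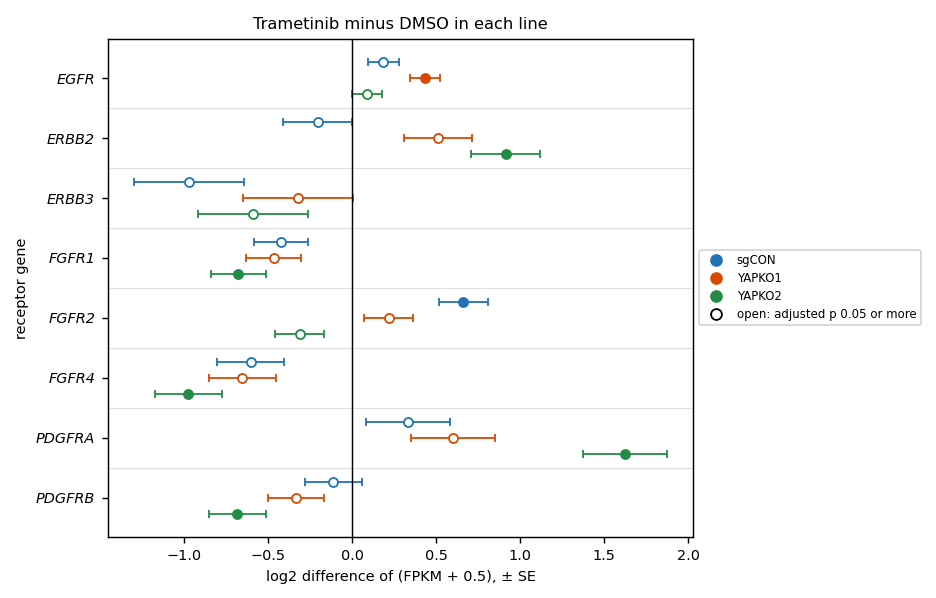
Change of each tested receptor with trametinib (log2, trametinib minus DMSO, on the log2(FPKM + 0.5) scale) in sgCON, YAPKO1 and YAPKO2; points are the fitted differences, error bars their SE, and filled points the called ones. FGFR2 differs in sign between sgCON and YAPKO2, and FGFR4 lies below 0 in every line.

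EGFR, the receptor for EGF, TGFA and HBEGF, was expressed in every library. In YAPKO1 it measured 10.8, 10.1 and 10.9 FPKM with DMSO and 15.5, 14.2 and 13.7 with trametinib. The groups did not overlap, and the rise was 0.43 ± 0.09 (SE, n = 3 against 3; limma adjusted p = 0.00608). In sgCON the values were 12.2, 13.5 and 14.3 FPKM with DMSO and 15.9, 14.5 and 15.3 with trametinib. Every treated sgCON library lay above every DMSO library, but the difference of 0.19 did not pass (limma adjusted p = 0.298). In YAPKO2 values of 10.6, 11.3 and 10.4 FPKM stood beside 11.9, 10.7 and 11.8, and these groups overlapped (0.09, limma adjusted p = 0.558). The call in YAPKO1 was lost when only its own 6 libraries were fitted (limma adjusted p = 0.143).

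ERBB2, which has no ligand of its own and signals by pairing with other ERBB receptors, rose in YAPKO2. Its values there were 3.52, 3.37 and 2.08 FPKM with DMSO and 5.09, 6.82 and 6.06 with trametinib. The groups were separate, and the rise was 0.91 ± 0.20 (limma adjusted p = 0.00416). In YAPKO1 it measured 3.14, 2.58 and 2.98 FPKM with DMSO and 4.98, 3.71 and 4.40 with trametinib, also without overlap, yet the difference of 0.51 ± 0.20 missed the threshold (limma adjusted p = 0.15). In sgCON the drug left it between 2.15 and 2.71 FPKM, inside the DMSO range of 1.98 to 3.93. Schwann cell markers, which include ERBB3, summed to 14.7 to 24.3 FPKM in YAPKO2 with trametinib against 8.19 to 9.41 with DMSO, with CDH19 listed at 0 throughout. Of 5 tested Schwann markers 1 was called, beside 20.1% of all tested genes. It was NGFR, which rose from 3.75, 3.86 and 3.92 FPKM to 17.3, 20.3 and 11.3, and the median change of the 5 was 0.01. The part of these markers in the ERBB2 difference was not tested. In bulk RNA, a change in the number of cells of a type and a change in RNA per cell cannot be told apart.

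ERBB3 had a lower mean with the drug in every line, without a call. It measured 0.530, 1.56 and 0.748 FPKM in sgCON with DMSO and 0.324, 0.0783 and 0.240 with trametinib. The drop of 0.97 ± 0.33 on the log2 scale did not pass (limma adjusted p = 0.107), nor did differences of -0.33 in YAPKO1 and -0.59 in YAPKO2. At these levels single libraries carry much of the mean. ERBB3 passed the filter through 3 libraries, none of them treated. They were parental replicate 3 (1.16 FPKM), sgCON DMSO replicate 2 (1.56) and YAPKO1 DMSO replicate 1 (1.495). Its lower mean with the drug is therefore not independent of the filter.

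FGFR1, a receptor for FGF2 among others, was lower with the drug. In YAPKO2 it went from 37.0, 45.2 and 38.4 FPKM to 25.1, 30.3 and 20.1, a fall of 0.68 ± 0.16 (log2 -0.68, limma adjusted p = 0.0068). In sgCON the DMSO values of 27.4, 31.5 and 31.4 FPKM lay above the trametinib values of 22.1, 23.5 and 21.2, with no call (log2 -0.42, limma adjusted p = 0.167). In YAPKO1 the groups overlapped, at 34.3, 42.1 and 52.6 FPKM against 37.0, 25.4 and 30.1 (log2 -0.47, limma adjusted p = 0.0925). After removal of each library's trend with transcript GC content, all 3 differences passed, at -0.44, -0.51 and -0.69 with limma adjusted p of 0.0282 in sgCON, 0.00889 in YAPKO1 and 0.00033 in YAPKO2.

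FGFR2, whose splice forms bind different FGFs, rose in the control line. In sgCON it measured 2.53, 2.99 and 3.18 FPKM with DMSO and 4.31, 5.6 and 4.74 with trametinib. The groups were separate, and the rise was 0.66 ± 0.15 (limma adjusted p = 0.0107). The call was lost without sgCON DMSO replicate 1 or without sgCON trametinib replicate 2, where the adjusted p reached at most 0.0655 with limma. YAPKO1 gave 3.59, 4.02 and 3.32 FPKM with DMSO and 4.13, 4.96 and 3.88 with trametinib, which overlapped (0.22, limma adjusted p = 0.431). YAPKO2 gave 3.48, 3.21 and 3.65 FPKM with DMSO and 2.99, 2.95 and 2.17 with trametinib, lower in each treated library but not called (log2 -0.31, limma adjusted p = 0.145).

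FGFR4, an FGF receptor also known from rhabdomyosarcoma and liver, was lower with the drug in every line. Its sgCON values were 10.4, 10.9 and 11.1 FPKM with DMSO and 7.55, 5.80 and 7.60 with trametinib. YAPKO1 had 8.19, 8.06 and 9.70 against 5.55, 4.55 and 5.86, and YAPKO2 had 7.02, 9.19 and 9.47 against 5.63, 4.71 and 2.49. Treated and DMSO libraries did not overlap in any of the lines. Only the YAPKO2 fall was called, at log2 -0.98 ± 0.20 (limma adjusted p = 0.00209), beside -0.60 in sgCON (0.0989) and -0.65 in YAPKO1 (0.0531). FGFR4 has the GC-richest transcript of the receptors, at 63.6%. After removal of the GC trend the falls were -0.70, -0.77 and -1.12, with limma adjusted p of 0.00268, 0.000871 and 7.88e-06.

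The PDGF receptors split. PDGFRA, which binds PDGFA and PDGFC, rose in YAPKO2 from 0.350, 0.442 and 0.947 FPKM to 3.20, 2.07 and 3.06. Every treated library was above every DMSO library, by 1.62 ± 0.25 (limma adjusted p = 0.000168), and this call held under all 16 alternatives. In YAPKO1, where the level was already 4.47, 4.84 and 2.36 FPKM with DMSO, it was 6.54, 6.08 and 5.21 with trametinib (0.60 ± 0.25, limma adjusted p = 0.168). The lowest of those DMSO values came from the library with the high GC trend, and without such libraries the difference was 0.32. In sgCON the values were 0.334, 0.363 and 0.648 FPKM against 0.610, 0.764 and 0.672, which overlapped.

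PDGFRB, the main receptor for PDGFB, fell in YAPKO2 from 24.8, 25.2 and 24.0 FPKM to 13.5, 18.6 and 13.9. The groups were well apart (log2 -0.68 ± 0.17, limma adjusted p = 0.00827). In YAPKO1 17.7, 19.3 and 22.7 FPKM stood against 15.8, 11.8 and 20.3, which overlapped (log2 -0.34, limma adjusted p = 0.267), and in sgCON all 6 values lay between 8.05 and 11.3. So in YAPKO2 the drug was accompanied by more PDGFRA and less PDGFRB RNA. Summed fibroblast markers, a list that holds both PDGF receptors and whose LUM, DCN and COL3A1 were well expressed, were 399.3 to 628.3 FPKM in YAPKO2 with DMSO and 215.4 to 354.4 with trametinib, with TWIST2 listed at 0. The list did not move one way: of 8 tested markers COL3A1 and PDGFRA rose and COL1A2, DCN and PDGFRB fell (20.1% of all tested genes were called). The part of these markers in either change was not tested. After removal of the GC trend both receptors passed in YAPKO1 too, PDGFRA at 0.68 (limma adjusted p = 0.0415) and PDGFRB at -0.44 (limma adjusted p = 0.0344).

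The 4 calls of ERBB2, FGFR1, FGFR4 and PDGFRB in YAPKO2 were lost when only the 6 YAPKO2 libraries were fitted, with limma adjusted p between 0.0681 and 0.133. The sizes of the differences cannot change in such a fit, because each group has its own mean. In sgCON fitting only the groups compared added calls, for the lower FGFR1 (limma adjusted p = 0.0187) and FGFR4 (limma adjusted p = 0.0244).

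Whether the lines differed in their response was tested by the difference of the drug changes. Between YAPKO1 and sgCON 0 of 8 receptors were called with limma (0.249% of all tested genes, and 1161 genes at an unadjusted p below 0.05). Between YAPKO2 and sgCON 3 of 8 were called (4.83% of all tested genes). The FGFR2 change was lower in YAPKO2 than in sgCON, by 0.97 ± 0.21 on the log2 scale (difference -0.97, limma adjusted p = 0.00968). Its YAPKO2 estimate was negative but not called on its own, and the difference held under all 22 alternatives. ERBB2 responded more by 1.12 ± 0.29 (limma adjusted p = 0.0326) and PDGFRA by 1.29 ± 0.35 (limma adjusted p = 0.043), but those calls held under only 12 and 7 of the 22. Both knockout comparisons share the sgCON libraries, and the 2 knockout lines were not tested against each other.

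In DMSO PDGFRB was higher and EGFR lower than sgCON in both knockout lines, and PDGFRA was higher in YAPKO1. With YAPKO1 3 of 8 receptors were called (12% of all tested genes), PDGFRA and PDGFRB higher and EGFR lower. With YAPKO2 2 of 8 were called (27.1% of all tested genes), PDGFRB higher and EGFR lower. The shares of all genes show that many genes separated these lines, most of all YAPKO2, so the receptor counts alone say little about receptors. Median receptor differences were 0.15 and 0.10, with all-gene medians of 0.00 and 0.01.

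PDGFRB went from 9.48, 9.15 and 11.3 FPKM in sgCON to 17.7, 19.3 and 22.7 in YAPKO1 and 24.8, 25.2 and 24.0 in YAPKO2. Neither knockout line overlapped with sgCON, and the differences were 0.96 ± 0.17 (limma adjusted p = 0.00102) and 1.27 ± 0.17 (3.19e-05). PDGFRA separated the knockout lines from each other. In YAPKO1 it was 4.47, 4.84 and 2.36 FPKM (2.17 ± 0.25, limma adjusted p = 1.25e-05), but it stood at 0.350, 0.442 and 0.947 FPKM in YAPKO2 beside 0.334, 0.363 and 0.648 in sgCON (0.16, limma adjusted p = 0.659). The PDGFRB calls of both lines and the PDGFRA call of YAPKO1 held under all 16 alternatives.

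EGFR was lower than sgCON by 0.32 ± 0.09 in YAPKO1 (log2 -0.32, limma adjusted p = 0.0289) and by 0.30 ± 0.09 in YAPKO2 (log2 -0.30, limma adjusted p = 0.0228). These are small differences, with group means of 13.3, 10.6 and 10.8 FPKM. They were lost under 6 and 5 of 16 alternatives, among them the fits without sgCON DMSO replicate 2 or replicate 3. FGFR1 and FGFR4 were not called in either line, at 0.49 and 0.41 for FGFR1 and -0.31 and -0.33 for FGFR4. After removal of the GC trend FGFR1 in YAPKO1 passed (0.43, limma adjusted p = 0.0188), as did FGFR4 in YAPKO1 (-0.47, limma adjusted p = 0.0206) and YAPKO2 (-0.59, limma adjusted p = 0.00299).

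Under trametinib 3 of 8 receptors were called between YAPKO1 and sgCON (15% of all tested genes) and 6 of 8 between YAPKO2 and sgCON (36.3% of all tested genes). PDGFRA was higher by 2.44 ± 0.25 in YAPKO1 (limma adjusted p = 3e-06) and by 1.46 ± 0.25 in YAPKO2 (limma adjusted p = 0.000236). PDGFRB was higher by 0.74 and 0.70, and ERBB2 by 0.74 and 1.16. The ERBB2 difference in YAPKO1 was 0.57 after removal of the GC trend and no longer called (limma adjusted p = 0.0666). It was also lost without sgCON trametinib replicate 1 or 2, or without YAPKO1 trametinib replicate 1 or 3, with limma adjusted p of at most 0.091. In YAPKO2 FGFR2 (-0.75 ± 0.15, limma adjusted p = 0.000659), FGFR4 (-0.70, limma adjusted p = 0.0112) and EGFR (-0.39, limma adjusted p = 0.0026) were lower, the latter pair not called when only the groups compared were fitted. The FGFR4 difference was -0.40 without YAPKO2 trametinib replicate 3. Thus the treated YAPKO2 cells had the highest ERBB2 and the lowest FGFR2 and FGFR4 group means of the treated lines.

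The control line was itself not equal to its parent. Between sgCON with DMSO and parental cells 4 of 8 receptors were called (15.9% of all tested genes): FGFR4 was higher in sgCON, and EGFR, PDGFRA and PDGFRB were lower. FGFR4 stood at 5.31, 5.43 and 5.36 FPKM in parental cells and 10.4, 10.9 and 11.1 FPKM in sgCON (0.94 ± 0.20, limma adjusted p = 0.00338). PDGFRA stood at 1.91, 1.39 and 2.11 FPKM in parental cells, between the sgCON and YAPKO1 levels (log2 -1.28 ± 0.25 in sgCON, limma adjusted p = 0.00178). The parental PDGFRB values of 13.9, 14.9 and 17.7 FPKM lay above all sgCON values and reached the lowest YAPKO1 value, and EGFR was highest in parental cells at 16.2, 15.9 and 18.0 FPKM. The calls of PDGFRB (log2 -0.61, limma adjusted p = 0.0193) and EGFR (log2 -0.31, limma adjusted p = 0.0241) were lost without parental replicate 3, sgCON DMSO replicate 1 or replicate 2. Summed fibroblast markers were 886.8 to 952.7 FPKM in parental cells and 457.2 to 537.7 in sgCON, and whether they bear on these differences was not tested. The culture time of the parental cells is not certain from the labels.

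**Figure D3:**
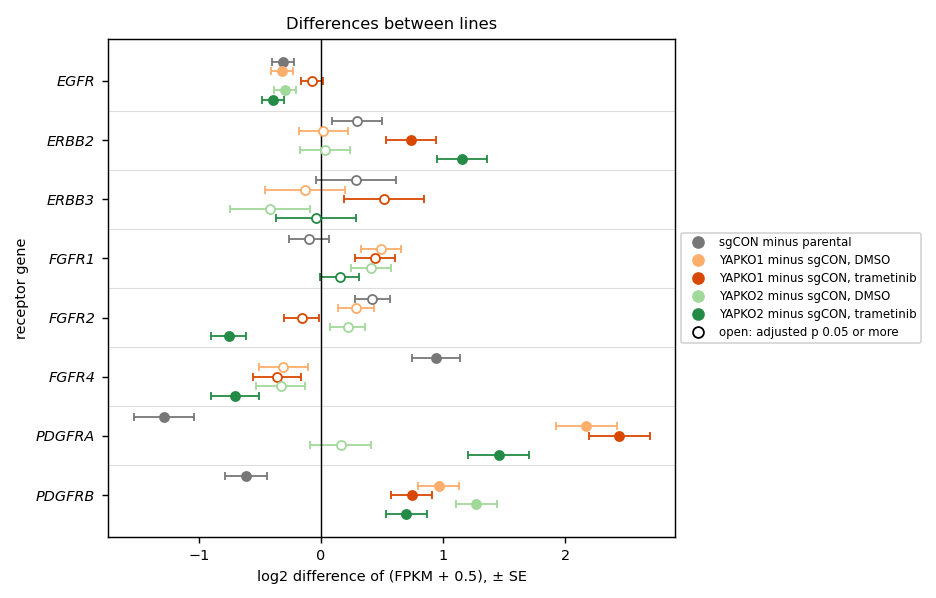
Differences of each tested receptor between lines (log2, on the log2(FPKM + 0.5) scale): each knockout line minus sgCON in DMSO and in trametinib, and sgCON minus parental; error bars are SE and filled points the called ones. PDGFRB lies above 0 for both knockout lines in both treatments, and below 0 for sgCON against parental.

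Ligands were read from a list of 28 genes, of which 18 were tested. The list also holds FGF11, FGF12, FGF13 and FGF14, intracellular FGF homologous factors that are not classical secreted ligands. They are included in the counts and medians of the list. With trametinib 0 rose and 3 fell in sgCON (FGF13, FGF14 and PDGFA), 1 rose and 1 fell in YAPKO1 (FGF10 and FGF14), and 0 rose and 4 fell in YAPKO2 (HBEGF, NRG1, FGF14 and PDGFA), where 5.22%, 7.85% and 20.1% of all tested genes were called. The FGF13 call was lost without any 1 of the 6 sgCON libraries, and in YAPKO2 that of HBEGF was lost without DMSO replicate 1 or 3 and that of PDGFA without DMSO replicate 2 or trametinib replicate 3. In YAPKO1 the rise was lost without DMSO replicate 3 or any 1 treated library, and the fall became 2 without any 1 of the DMSO libraries. A rise appeared in YAPKO2 without DMSO replicate 3 or without trametinib replicate 2 or 3. Their median changes were -0.14, -0.29 and -0.32, against all-gene medians between -0.01 and 0.00. PDGFA, the ligand of PDGFRA, fell in sgCON from 10.97, 11.15 and 10.76 FPKM to 5.36, 4.91 and 6.80 (log2 -0.90 ± 0.18, limma adjusted p = 0.00496). NRG1, a neuregulin that binds ERBB3 and ERBB4, fell in YAPKO2 from 9.99, 9.73 and 11.3 FPKM to 4.20, 5.71 and 4.52 (log2 -1.04 ± 0.14, limma adjusted p = 4.59e-05).

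Between the lines, in DMSO, 2 genes of the ligand list were higher and 5 lower in YAPKO1 (12% of all tested genes were called). In YAPKO2 2 were higher and 8 lower (27.1% of all tested genes). The list medians were -0.35 and -0.72, beside all-gene medians of 0.00 and 0.01. In both lines the 2 higher genes were the intracellular factors FGF11 and FGF13. The 8 became 5 without sgCON DMSO replicate 3, and the rises in YAPKO1 became 1 without sgCON DMSO replicate 1 or YAPKO1 DMSO replicate 3. PDGFC measured 15.5, 17.5 and 17.9 FPKM in sgCON, 5.92, 6.49 and 4.39 in YAPKO1 and 9.84, 8.29 and 10.9 in YAPKO2. It was lower by 1.53 ± 0.16 in YAPKO1 (log2 -1.53, limma adjusted p = 6.31e-06) and by 0.78 in YAPKO2 (log2 -0.78, limma adjusted p = 0.00197). PDGFA was lower in both as well, at -1.20 (limma adjusted p = 0.000192) and -1.22 (limma adjusted p = 8.16e-05). In YAPKO1 PDGFA and PDGFC were thus lower while both PDGF receptors were higher. PDGFD did not pass (log2 -0.48, limma adjusted p = 0.319), and PDGFB was too low to be tested.

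MET and KIT RNA was near 0 while their ligands were expressed. HGF, the MET ligand, measured 36.4, 34.8 and 36.2 FPKM in parental cells and 14.6, 16.7 and 15.5 in sgCON (log2 -1.17 ± 0.22, limma adjusted p = 0.00152). KITLG, the stem cell factor that binds KIT, was 27.2, 26.0 and 25 FPKM in sgCON and 9.58, 3.14 and 4.94 in YAPKO2 (log2 -2.18 ± 0.47, limma adjusted p = 0.00258). YAPKO1 spread widely, at 26.6, 21.9 and 10.0 FPKM, and did not pass the test against sgCON (log2 -0.52, limma adjusted p = 0.502). HBEGF, an EGFR ligand, fell from 20.4, 20.7 and 22.4 FPKM in parental cells to 3.25, 3.17 and 3.58 in sgCON (log2 -2.50 ± 0.16, limma adjusted p = 3.56e-08).

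**Figure D4:**
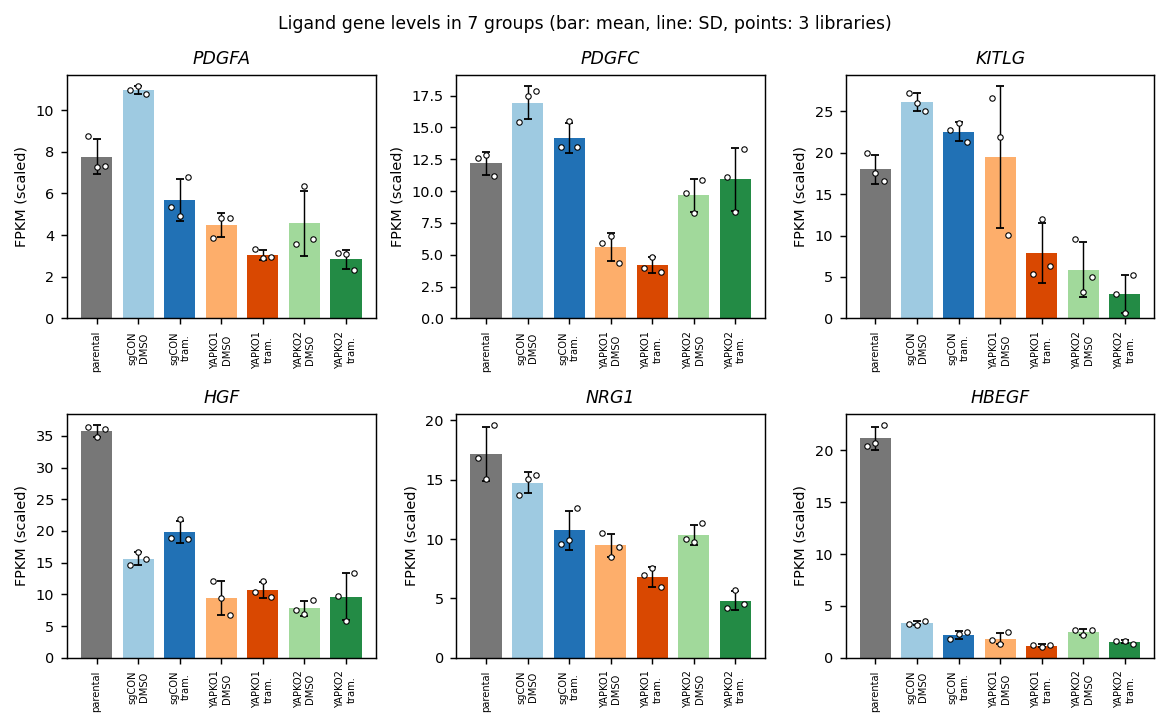
Levels of ligands in scaled FPKM (vertical axes, from 0) in the 7 groups; bars are means of 3 libraries, error bars the SD and points the single libraries. HGF and HBEGF are highest in parental cells, and KITLG is low in YAPKO2.

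The other members of the same families numbered 7, of which 3 were tested and none was called with trametinib in any line by limma. ERBB4, a neuregulin receptor, was lower in both knockout lines. It measured 6.93, 7.19 and 5.88 FPKM in sgCON with DMSO, 1.48, 2.14 and 0.972 in YAPKO1, and 2.29, 1.64 and 3.11 in YAPKO2. No knockout library reached the sgCON range (log2 -1.86 ± 0.28 with limma adjusted p = 0.000272, and -1.36 ± 0.28 with 0.00206). The difference also held under trametinib, at -2.55 and -1.74. With the drug, ERBB4 in sgCON measured 10.97, 9.76 and 11.24 FPKM, above every sgCON DMSO library. This log2 rise of 0.64 was not called (limma adjusted p = 0.246). It was called under 1 of 15 alternatives, only the groups compared (limma adjusted p = 0.0155). ERBB4 overlapped in both knockout lines. FGFR3 in both knockout lines and FGFRL1 in sgCON were lower with the drug, without overlap. FGFR3 in YAPKO2 (log2 -0.75, limma adjusted p = 0.0541) was called under 4 of 16.

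Adaptors and effectors that carry the receptor signal were all 18 tested. With trametinib 0 rose and 1 fell in sgCON, 1 rose and 1 fell in YAPKO1, and 2 rose (GAB2 and FRS3) and 2 fell (SHC3 and CRKL) in YAPKO2. Of all tested genes 5.22%, 7.85% and 20.1% were called in these comparisons, so the adaptor counts lie near the background. Their medians were -0.05, -0.04 and 0.11. SHC3, a neuronal SHC adaptor, fell in each line: from 5.44, 5.24 and 5.89 FPKM to 2.75, 2.80 and 2.18 in sgCON, from 8.98, 6.89 and 7.21 to 2.74, 2.93 and 2.09 in YAPKO1, and from 8.51, 7.14 and 8.54 to 0.943, 1.31 and 0.792 in YAPKO2. The log2 changes were -0.98, -1.41 and -2.51, each called by limma (adjusted p = 0.000817, 1.42e-05 and 1.01e-08). The fall was larger in YAPKO2 than in sgCON (log2 difference -1.53 ± 0.22, limma adjusted p = 0.000422). GAB2, a docking protein, rose in YAPKO1 by 0.59 and in YAPKO2 by 0.71 (limma adjusted p = 0.00767 and 0.000661), calls that were lost when only the groups compared were fitted. In sgCON GAB2 was higher by 0.44 and just missed the threshold (limma adjusted p = 0.0523). That difference was called under 5 of 15 alternatives, among them the fit of only the groups compared.

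Inhibitors of the receptors and genes of receptor turnover were the next list. Of 21 tested, 1 rose and 4 fell in sgCON (SPRY1, SPRY2, SPRY4 and SH2B3), 1 rose and 6 fell in YAPKO1, and 1 rose and 7 fell in YAPKO2, beside the 5.22%, 7.85% and 20.1% of all tested genes called. Median changes were -0.17, -0.38 and -0.30. SPRY2, a Sprouty feedback inhibitor induced by ERK, fell from 30.4, 30.1 and 31.6 FPKM to 7.50, 7.31 and 8.17 in sgCON (log2 -1.94 ± 0.11, limma adjusted p = 5.85e-09), with log2 changes of -1.85 in YAPKO1 (1.16e-08) and -1.35 in YAPKO2 (1.75e-07). PTPRJ, a receptor-type phosphatase that dephosphorylates several of these receptors, fell in the knockout lines (log2 -1.60 in YAPKO1 and -1.38 in YAPKO2, limma adjusted p = 4.71e-05 and 8.59e-05), beside -0.53 in sgCON, which did not pass (limma adjusted p = 0.157). Those falls were not shown to differ from sgCON (limma adjusted p = 0.173 and 0.0981).

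SOCS2, a cytokine-induced suppressor of signalling, was the inhibitor that rose in all 3 lines, by 0.70, 0.69 and 0.54 (limma adjusted p = 0.00849, 0.00731 and 0.0159). The rise in YAPKO2 was lost without YAPKO2 DMSO replicate 2 or trametinib replicate 1 or 3. The wider MEK/ERK output list shares SPRY2, SPRY4, SPRED1 and SPRED2 with the inhibitors. Of its 15 tested genes 0 rose and 10 fell in sgCON, 0 rose and 11 fell in YAPKO1, and 0 rose and 12 fell in YAPKO2, with medians of -0.85, -1.45 and -1.29. The shares of all tested genes called were 5.22%, 7.85% and 20.1%.

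The genes whose profile over the 21 libraries was most like each receptor's were ranked by Pearson's r of log2 levels, given as a description because the libraries share lines, drug and GC trend. For FGFR1 they were RUVBL1 (0.950), ASS1 (0.916) and PGAM1 (0.907). FGFR4 was followed most closely by PUS1 (0.910), NOP16 (0.910) and GSR (0.903), PDGFRB by C1orf61 (0.933), NBL1 (0.921) and PLXNA2 (0.910), and PDGFRA by KLHDC2 (0.918), DAPK2 (0.911) and FAM167A (0.875). EGFR had MSX2 (0.905), GPRC5A (0.895) and NRP1 (0.867), and ERBB2 had SCN3B (0.870). The nearest profiles to FGFR2 (TRIB1, 0.818) and ERBB3 (PCID2, 0.764) were less like them. No other receptor of the 10 was among these nearest genes.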

How the data were processed

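Total RNA from 21 NLF samples was sequenced after ribosomal RNA depletion with a stranded kit (source: the labels' protocols). The authors deposited FPKM in 2 tables of 57820 genes. Per the submitters' processing notes, STAR 2.4.2, RSEM 1.3.0 and hg19 were used; the annotation and strand setting are not given in the sources used here. The calibrated FPKM table was checked to equal the other times 1 factor per library (0.927 to 1.07). Parental samples were matched to the columns headed only DMSO with a replicate number. The vehicle is 0.01% DMSO by the treatment protocol, whereas the design text states 0.1%.

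Calibrated FPKM were rescaled by median ratios over 15700 genes. Genes at 1 FPKM or more in at least 3 libraries were kept (16092), log2(FPKM + 0.5) was fitted with 1 mean per group over all 21 libraries in limma 3.58.1 (R 4.3.3, variance trend), and p-values were adjusted over all tested genes. A fold on this scale understates the change of low genes. The method was tested on simulated data. Alternatives were another pseudocount, no filter, no further scaling, quantile normalization, only the groups compared, a replicate block, a GC spline, leaving out 3 libraries of high GC trend, and leaving out each library. GC percent, available for 96.5% of tested genes, came from GENCODE v29 transcripts. The GC trend of a library is its median deviation in the top quartile of GC minus that in the bottom quartile, over protein-coding genes. Named genes are the members, YAP1, up to 4 called genes per list with the largest change in a comparison described, and the 3 nearest profiles per receptor. Genes that complete a small count, and SOCS2, KITLG in YAPKO1 and PDGFC in YAPKO2, were named after their values were seen. So were FGFR3, FGFRL1 and the change of ERBB4 with the drug. The members and lists were chosen with earlier results of these data known. Replicate libraries correlated at no more than 0.978, so none was counted as a duplicate.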

Additional observations from a re-analysis of the deposited data

Results flagged for a closer look

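For 3 receptors the response to trametinib differed between YAPKO2 and sgCON by the test of the difference itself (limma, adjusted over all tested genes). FGFR2 rose in sgCON and was lower in all 3 treated YAPKO2 libraries, a difference of -0.97 ± 0.21 (adjusted p = 0.00968). It was called under all 22 alternatives, with values between -1.09 and -0.85. ERBB2 was inside its DMSO range in sgCON and higher in YAPKO2, a difference of 1.12 ± 0.29 (adjusted p = 0.0326). It stayed positive, between 0.92 and 1.33, but was called in 12 of 22. PDGFRA differed by 1.29 ± 0.35 (adjusted p = 0.043) and was called in 7 of 22, with values between 1.04 and 1.61. The adjusted p of PDGFRA reached 0.115 and that of ERBB2 0.111. Without the 3 libraries of high GC trend the limma adjusted p was 0.0738 for ERBB2 and 0.0234 for PDGFRA.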

How the results depend on the processing

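Of 28 called pairs of receptor and comparison, 13 stayed called under every alternative and 7 were lost only when the groups compared were fitted alone. Of 1352 receptor values under alternatives, 1231 kept direction and call, 57 lost a call, 35 gained one and 29 changed sign. The 28 called pairs are of 80 tested, so many of the values that kept direction and call were never called. The 57 lost calls belong to the called pairs alone. Those that changed sign had at most 0.33 (log2) in size and none was called by limma before or after. FPKM give no read counts, so depth sets no interval here, and receptors near 0 (MET, KIT, ERBB3) are the least certain.

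Fitting only the groups compared gave 2392, 197 and 693 called genes for trametinib in sgCON, YAPKO1 and YAPKO2, with 3, 0 and 1 receptors. It gave 739 genes for YAPKO1 against sgCON in DMSO, 2576 for YAPKO2 against sgCON in trametinib, 9 and 443 for the response differences of YAPKO1 and YAPKO2 (1 receptor in the latter), and 4684 for sgCON against parental. With the GC spline the drug calls were 1515 genes and 3 receptors in sgCON and 2224 and 5 in YAPKO1, YAPKO1 against sgCON in DMSO had 2993 and 5, the response differences had 145 and 1574 genes, and sgCON against parental had 3894. The GC spline with the replicate block gave 1373 genes and 3 receptors in sgCON, 2007 and 4 in YAPKO1, 5 receptors for YAPKO1 against sgCON in DMSO, and 100 and 1440 genes for the response differences.

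With a pseudocount of 1, 2 receptors were called with trametinib in YAPKO1. The YAPKO1 response difference had 24 genes with a pseudocount of 0.1, 23 with no further scaling and 74 without the 3 libraries of high GC trend, which gave 2990 genes for trametinib in YAPKO1. The YAPKO2 response difference had 1 receptor with no filter or with no further scaling. The causes of these shifts were not tested.

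Leaving out 1 library at a time, drug calls ranged from 483 to 546 genes and 0 to 1 receptors in sgCON, 744 to 1614 and 1 to 2 in YAPKO1, and 2271 to 4551 in YAPKO2. Against sgCON in DMSO YAPKO1 ranged from 1231 to 2132 genes and YAPKO2 from 2575 to 3848 with 1 to 2 receptors. In trametinib YAPKO1 ranged from 1421 to 2147. Response differences ranged from 12 to 39 genes for YAPKO1 and from 509 to 1160 with 1 to 2 receptors for YAPKO2, and sgCON against parental from 1696 to 1862 with 2 to 4 receptors.

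Replicate numbers did not pair the libraries: same-numbered libraries deviated together with correlations between -0.125 and 0.361, and in 0 of 8 comparisons were all 3 above 0.1. In 8 of 24 pairs a library correlated best with its own number. Of the counts of called genes and receptors, the replicate block moved 1 by more than 1.5 times, to 19 genes for the YAPKO1 response difference.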

Other observations

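Among transcription factors reported to act on receptor genes, GATA2 and GATA3 rose and MYCN fell with trametinib in all 3 treated lines. MYCN, the amplified oncogene of many neuroblastomas, went from 98.9, 98.1 and 92.3 FPKM to 55.0, 49.8 and 51.3 in sgCON (log2 -0.88 ± 0.12, limma adjusted p = 0.000213), and by -1.35 and -1.39 in YAPKO1 and YAPKO2. It also separated the lines without the drug, at 29.1, 35.4 and 31.4 FPKM in parental cells against the sgCON values given (1.58 ± 0.12, limma adjusted p = 1.83e-07). GATA2, a GATA factor of the sympathetic lineage, rose from 8.92, 6.94 and 7.51 FPKM to 18.7, 16.5 and 17.4 in sgCON (1.13 ± 0.14, limma adjusted p = 8.2e-05).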
